A study of Mus musculus with 12 samples.

Results

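The 41 genes described here encode tubulins, the cofactors that fold them, microtubule-associated proteins, stathmins, and subunits of the dynein, dynactin and kinesin motors. They were chosen by symbol from a list. No measured value was part of the rule, but the list was made with earlier results of these data known. All 41 were matched by gene identifier among the 43346 annotated mouse genes of the deposited tables. Of those genes, 16934 had an expected count of at least 1 in some library. The list comprised 4 alpha tubulins, 6 beta tubulins, 2 folding cofactors, 6 structural microtubule-associated proteins, 4 stathmins, 7 dynein subunits, 3 dynactin subunits, 7 kinesin motors and 2 kinesin light chains.

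The libraries came from 1 male mouse of 14 months, an adult B6CASTF1/J hybrid of Castaneus and C57Bl6. Purkinje cells, the large output neurons of the cerebellar cortex, were excised, 13 of them were homogenized together, and the lysate was split into portions of 1 cell equivalent each. The 12 portions described here were each made into an RNA-seq library by a Smart-seq protocol with added spike-in RNA. The 12 libraries carry technical replicate numbers 1 to 6 and 8 to 13, and a library is named below by that number. They form 1 group with no treatment, genotype or age to compare, so spread between libraries and every p-value below measure technical sampling of 1 lysate, not variation between cells or mice. In such a pooled lysate, fewer cells containing an mRNA and less of it in each cell cannot be told apart.

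Microtubules are polymers of alpha- and beta-tubulin dimers. Their C-terminal tails, which are rich in glutamate, face outward and are where enzymes add glutamate chains and, on alpha-tubulin, remove or restore a terminal tyrosine. In neurons, microtubules run along dendrites and axon, structural proteins such as MAP2 and tau bind along them, stathmins bind free tubulin dimers, kinesins mostly carry cargo toward the growing end, and cytoplasmic dynein with its activator dynactin carries it back. Purkinje cells depend on this machinery: loss of the tubulin deglutamylase Agtpbp1 is the defect of the pcd mouse, in which these cells degenerate.

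Library totals ranged from 15167444 to 27806010 expected counts, and spike-in sequences took 4.78% to 14.6% of counts and 7.70% to 23.5% of deposited TPM, the relative abundance of a transcript corrected for its length. An expected count of at least 50 was reached by 5407 to 8645 annotated genes in a library. Libraries 1, 4 and 13 had the lowest spike-in shares. All 10 Purkinje markers, among them Pcp2, Calb1 and Car8, had at least 50 counts in every library, and their summed level was 28143 ± 5651 TPM (SD, n = 12 libraries here and below; range 20871 to 36639). The lysate also held RNA of neighbouring cells. The 8 markers of Bergmann glia and astrocytes summed to 1328 to 3586 TPM, the 8 granule cell markers to 113.5 to 775.6, the 6 oligodendrocyte markers to 91.3 to 375.3, and the 5 red blood cell markers to 362.3 to 1551. The 8 microglial markers summed to 0 to 445.8 TPM with Fcer1g at 0 throughout, and the 5 interneuron markers to 1.25 to 105.9 with Sst at 0. The 6 endothelial and mural markers summed to 0 to 287.1 TPM with Cldn5 and Acta2 at 0, and the 3 choroid plexus markers to 0 to 40.1 with Ttr and Folr1 at 0. The part of these cells in the levels below was not tested.

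The tubulin genes are near copies of each other, which limits how reads can be assigned, and their proteins are known to differ most at the C-terminal tail. The final 60 coding bases of 6 of them are shown because they encode this tail. Each lies within the last coding exon (exon 4 of the transcript used) and is given 5′ to 3′ in coding orientation from the GENCODE M21 annotation of GRCm38. Capitals mark in-frame GAA or GAG codons, which encode glutamate, and the run ends with the stop codon.
Tuba1c (chr15:99037950-99038009, plus strand): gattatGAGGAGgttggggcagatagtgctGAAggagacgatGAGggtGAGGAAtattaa
Tuba4a (chr1:75215622-75215681, minus strand): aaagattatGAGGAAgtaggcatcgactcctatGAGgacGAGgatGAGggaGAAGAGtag
Tubb2a (chr13:34074468-34074527, minus strand): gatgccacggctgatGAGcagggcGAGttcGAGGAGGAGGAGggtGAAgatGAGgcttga
Tubb2b (chr13:34127471-34127530, minus strand): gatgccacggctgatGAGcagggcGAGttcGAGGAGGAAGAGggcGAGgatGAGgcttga
Tubb3 (chr8:123421623-123421682, plus strand): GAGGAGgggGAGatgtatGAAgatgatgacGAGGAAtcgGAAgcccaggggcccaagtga
Tubb4b (chr2:25222308-25222367, minus strand): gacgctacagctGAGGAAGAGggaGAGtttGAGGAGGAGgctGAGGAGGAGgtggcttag
The tail of Tuba1c held 6 glutamate codons and that of Tuba4a held 7. Tuba1c ended in the tyrosine codon tat before the stop, whereas Tuba4a ended in gag. Of the beta tubulins, Tubb2a and Tubb2b each held 8 glutamate codons, Tubb3 held 7 and Tubb4b held 10. The tails of Tubb2a and Tubb2b differ only in codons for the same amino acids, so they encode the same residues.

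Over the whole coding sequence Tuba1a and Tuba1b were 98.3% identical, Tuba1b and Tuba1c 98.0%, and Tubb2a and Tubb2b 96.5%, while Tuba1a and Tuba4a were 85.1% and Tubb3 and Tubb5 81.9% identical. For each member the transcript with the longest complete coding sequence was used, and its every 100-base window was compared with the annotated transcripts of other genes. For some members, such as Mapt, Map6, Kif1a and Kif3a, it is shorter than the longest coding transcript used for length below. An exact copy elsewhere was found for 73.0% of windows of Tuba1b, 65.8% of Tuba1a, 53.4% of Tuba1c, 36.9% of Tubb2a, 30.6% of Tubb4b and 27.7% of Tubb2b. For the other members the share was 46.7% in Tuba4a, which overlaps Stk16, 26.1% in Stmn1, which has a copy in the pseudogene Gm11223, and 17.2% in Tbcb, which overlaps Polr2i. In all, 14 members had such a window and 27 had none, Tubb3, Tubb4a and Tubb5 among the latter. Copies were sought in GENCODE M21, while the deposited counts used M4, so some may not have entered the assignment of reads. The only partners of Dync1h1, Kif5b and Klc2 were not among the deposited genes. For genes with copies, the deposited posterior SD, the authors' estimate of the assignment error, was 5.26% of the count for Tuba1c, 1.29% for Tubb2b, 0.906% for Tuba1b and 0.398% for Tuba1a. The labels used here do not say whether counting used strand, so reads of Tuba4a and Stk16, or of Tbcb and Polr2i, may not be separable.

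Tuba1a, the main alpha tubulin of the developing brain and of many adult neurons, had the highest mean level of the alpha members, at 364 ± 199 TPM. It ranged from 54.6 TPM in library 5 to 745 in library 6, with a median of 390.4. Tuba1b, a broadly expressed isotype, ranged from 59.7 to 431 TPM with a median of 182. Libraries 5 and 3 were low for Tuba1a, and library 5 was also the lowest for Tuba1b. Tuba4a, an alpha tubulin of mature neurons among other tissues, ranged from 18.9 TPM in library 2 to 688 in library 5, with a median of 202. Libraries 3 and 5, low for Tuba1a, were the highest for Tuba4a. Tuba1c was the lowest, from 0 TPM in libraries 4 and 8 to 45.2 in library 11 with a median of 6.30, and it reached 50 counts in 8 libraries.

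Related genes were compared within each library as differences of log2(TPM + 1), by an exact permutation test that flips the signs of the 12 differences (a two-sided test), with Benjamini-Hochberg adjustment over 28 pairs. The smallest p this test can give is 4.88e-04. The pairs were listed with earlier results of these data known, and the adjustment does not cover that choice. Of the 28 pairs, 12 had an adjusted p under 0.05. Tuba1a exceeded Tuba1b by 0.98 ± 1.02 on the log2 scale and was higher in 10 of 12 libraries (exact permutation test, adjusted p = 0.0224). This call ended without libraries 1, 4 and 13, where the difference was 0.96 (adjusted p = 0.0994). Tuba1b exceeded Tuba1c by 4.61 ± 1.81 and was higher in all 12 libraries (adjusted p = 0.00342). Tuba1a and Tuba4a differed by 1.07 ± 2.46, with Tuba1a higher in 9, which did not pass (adjusted p = 0.218). As shares of the summed deposited TPM of the alpha members, Tuba1a held 47.4 ± 22.4%, Tuba4a 29.0 ± 25.4%, Tuba1b 22.1 ± 9.78% and Tuba1c 1.47 ± 1.81%. Tuba1a led in 9 libraries and Tuba4a in libraries 3, 4 and 5, where its share reached 85.7% in library 5.

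**Figure D1:**
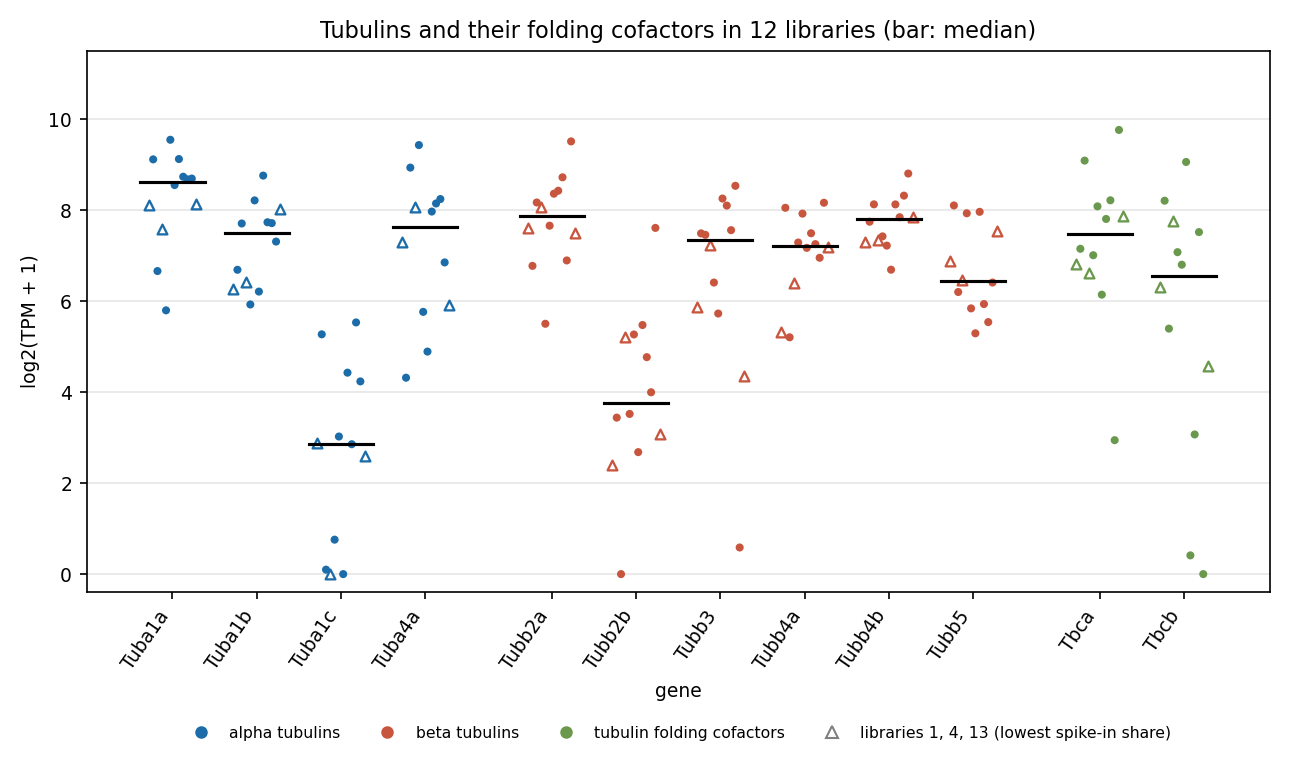
Level of each tubulin and folding cofactor gene as log2(TPM + 1) in the 12 libraries (points; open triangles are libraries 1, 4 and 13; the bar is the median). The medians of Tuba1c and Tubb2b lie below those of the other tubulins, and Tubb3 and Tbcb each have libraries near 0 beside libraries above 100 TPM.

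Tubb2a, a major beta tubulin of brain, was the most abundant beta member by mean, 268 ± 181 TPM, from 44.3 in library 5 to 727 in library 12 with a median of 233. Tubb4b, a broadly expressed beta tubulin, was the steadiest of the tubulins, from 102 TPM in library 8 to 445 in library 12 with a median of 221. Library 12 was thus the highest for both. Tubb3, the beta tubulin used as a marker of neurons, ranged from 0.5 TPM in library 12 to 369 in library 11 with a median of 162. Its count in library 12 was 22, against more than 50 in each of the other 11. Tubb4a, a beta tubulin of brain found in neurons and oligodendrocytes, ranged from 35.9 to 285 TPM with a median of 148, and Tubb5, which is expressed widely, from 38.2 to 273.5 with a median of 85.3. Tubb2b, known for its role in cortical development, was the lowest, from 0 TPM in library 3 to 194 in library 12 with a median of 12.7.

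The near-identical pair Tubb2a and Tubb2b differed by 3.81 ± 1.82 on the log2 scale, with Tubb2a higher in all 12 libraries (exact permutation test, adjusted p = 0.00342). No other beta tubulin pair passed. Tubb4a lay below Tubb4b by a mean of -0.70 ± 1.04 and was lower in 9 libraries (adjusted p = 0.0715); without library 2, 6 or 8 in turn the adjusted p was 0.0442, 0.0319 and 0.0421. Tubb2a against Tubb3 gave 1.30 ± 2.74 (adjusted p = 0.138), Tubb4a against Tubb2a -0.73 ± 1.40 (adjusted p = 0.150), and Tubb3 against Tubb5 -0.21 ± 2.52 with 6 libraries each way (adjusted p = 0.788). Without library 12 the last difference was 0.30. The mean shares of the summed beta members were 26.9% for Tubb2a, 23.9% for Tubb4b, 16.4% for Tubb3, 16.0% for Tubb4a, 14.2% for Tubb5 and 2.73% for Tubb2b. Tubb2a led in 7 libraries, Tubb5 in libraries 2 and 5, and Tubb3, Tubb4a and Tubb4b in 1 each, so the leading isotype changed from portion to portion of the same lysate.

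**Figure D2:**
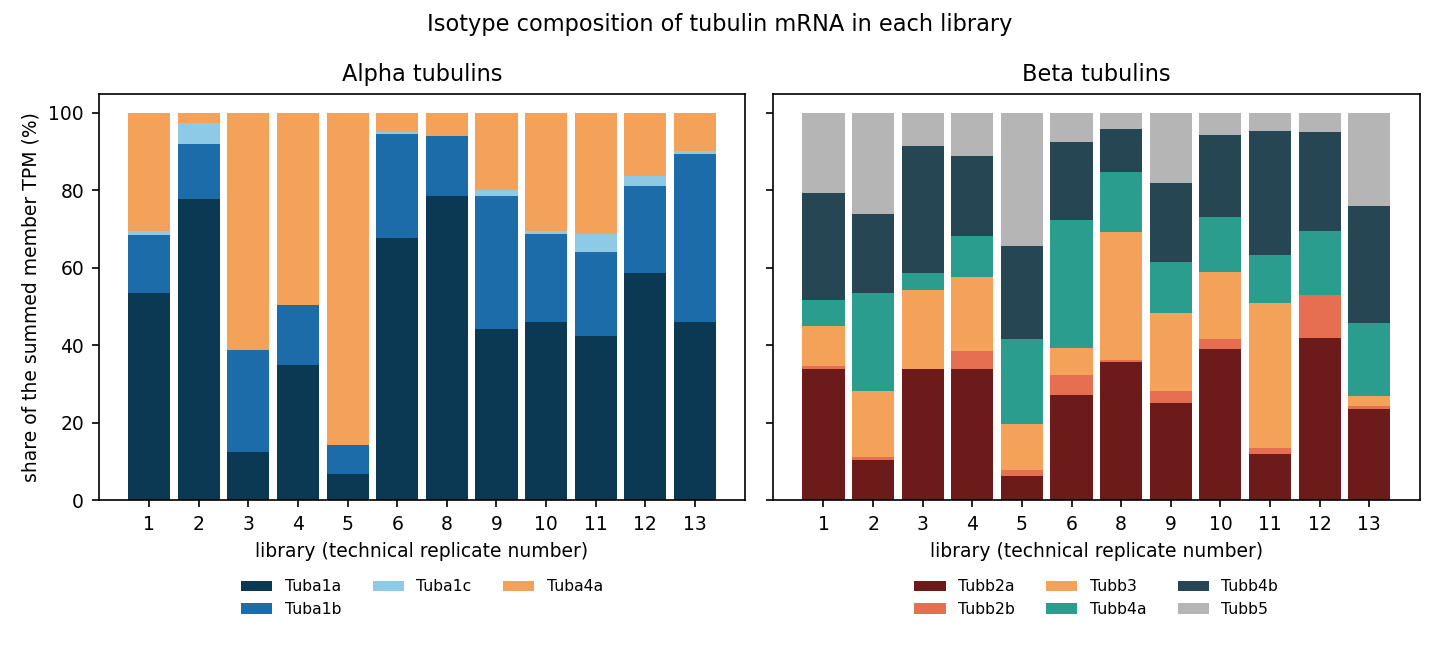
Stacked bars give each isotype's share (%) of the summed TPM of the alpha members (left) and of the beta members (right) in each library. Tuba4a runs from 2.66% to 85.7% of the alpha sum, and Tubb2a is the largest beta share in 7 of 12 libraries.

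The 4 alpha members summed to 782 ± 243 TPM and the 6 beta members to 961 ± 322, against 1744 ± 458 for all 10. The within-library difference of the sums was -0.29 ± 0.50 on the log2 scale, with the alpha sum lower in 10 of 12 libraries (exact permutation test, adjusted p = 0.103). The call depended on how the genes were counted. Without library 6 the difference was -0.37 (adjusted p = 0.0199). Tuba8, a further alpha tubulin outside the list, stood at 149.8 ± 113 TPM, and Tubb6, a further beta tubulin, at 1.36 ± 3.17. With both added the difference was -0.03 ± 0.41 (permutation p = 0.806). Tuba3a, Tuba3b, Tubal3 and Tubb1, the other alpha and beta tubulins looked up, had no count in any library. Of the gamma tubulins, which nucleate microtubules, Tubg1 was at 68.0 ± 66.5 TPM with at least 50 counts in all 12 libraries and Tubg2 at 7.95 ± 15.3 with that many in 3.

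The cofactors Tbca and Tbcb hold folded beta- and alpha-tubulin before the dimer forms. Tbca ranged from 6.69 TPM in library 11 to 866 in library 12 with a median of 182. Tbcb ranged from 0 TPM in library 12 to 531 in library 8 with a median of 94.2, and it was at 0.330 in library 9. Library 12, the highest for Tbca, thus had no Tbcb count. Their difference of 1.78 ± 4.23 did not pass (exact permutation test, adjusted p = 0.236). Much of the Tbcb level rested on a short retained-intron transcript, and counted over its longest coding transcript the mean was 73.7 ± 95.3 TPM.

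Transcript length bears on several levels below. TPM divides a gene's count by the average length of the transcripts the reads were assigned to, so reads placed on a short annotated fragment weigh more. For 11 members, at least 50% of the TPM lay on transcripts under 50% of the length of the longest coding one, and these were Tuba4a, Tbcb, Map2, Map6, Mapt, Dynll1, Kif1a, Kif1b, Kif3a, Kif5b and Klc2. Kif1a is the clearest case: transcripts of that kind held 73.6% of its TPM and 13.9% of its counts. For Dynll1 and Map6 they held 97.0% and 91.7% of the counts. Where those assignments hold, dividing by the longest coding length understates the level of these genes. Levels over the longest coding transcript alone are given beside those deposited wherever they change a result, and over all 28 pairs this setting gave 15 calls in place of 12. For Tuba4a the mean became 123 ± 99.6 TPM in place of 226 ± 202, and its difference from Tuba1a became 1.79, which passed (adjusted p = 0.0419). The alpha sum then lay below the beta sum by a mean of -0.51 (adjusted p = 0.00994).

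Mapt, which encodes tau, the main microtubule-binding protein of axons, had the highest mean of the 6 structural proteins, 139 ± 97.1 TPM, from 26.95 in library 3 to 293.5 in library 6 with a median of 117. Map4, which is found in most cell types, ranged from 30.7 to 200.1 TPM with a median of 74.0, and Map2, the dendritic protein, from 14.8 in library 8 to 296 in library 10 with a median of 58.5. Map1b was the steadiest of all 41 members but for Stmn3: it ranged from 18.6 to 58.3 TPM with a median of 45.3, and its coefficient of variation (CV, the SD divided by the mean) was 0.322 against 0.291 for Stmn3. The related Map1a, which like Map1b is cut into a heavy and a light chain, ranged from 0.810 to 26.6 TPM with a median of 12.0. Map6, known for making microtubules stable in the cold, was detected unevenly, from 0 TPM in libraries 2 and 10 to 59.8 in library 12 with a median of 19.1. Libraries 3 and 5 were at 0.0400 and 0.0600 for Map6, so its low and high libraries were far apart.

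Map1b exceeded Map1a by 2.14 ± 1.15 on the log2 scale in all 12 libraries (exact permutation test, adjusted p = 0.00342). Map6 lay below Mapt by a mean of -3.64 ± 2.54, in 11 of 12 libraries (adjusted p = 0.00342). Map2 against Mapt gave -0.89 ± 1.33 with Map2 lower in 8 libraries (adjusted p = 0.0859; without library 9 the difference was -1.07, adjusted p = 0.0484). Map4 against Map2 gave 0.32 ± 1.25 (adjusted p = 0.536). That comparison turned on transcript length: over the longest coding transcripts Map4 was at 64.3 ± 36.4 TPM and Map2 at 28.2 ± 14.7, and the difference of 1.15 passed (adjusted p = 0.00513). By the same count Mapt was at 56.9 ± 31.5 TPM.

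The stathmins were the most abundant class, 1866 ± 403 TPM in sum, which was 27.1% of the TPM of all members. Stmn3, a neuronal, membrane-anchored stathmin, had the highest mean of all 41 members and ranged from 320 TPM in library 1 to 1354 in library 9 with a median of 1133. Library 1 stood apart, since the next lowest, library 13, was at 736. Stmn2, known for its role in axon growth and maintenance, ranged from 191 to 634 TPM with a median of 449.6, and Stmn1, the founding cytosolic member, from 40.96 in library 6 to 615 in library 3 with a median of 273. Stmn4, another neuronal member, was the lowest, from 3.47 TPM in library 12 to 151 in library 9 with a median of 63.7. All 4 had at least 50 counts in every library.

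Stmn3 exceeded Stmn2 by 1.21 ± 0.81, higher in 11 of 12 libraries (exact permutation test, adjusted p = 0.00342). In CPM, which are counts scaled to the library total and not per length, the difference was 0.31 and did not pass (adjusted p = 0.412). Stmn1 exceeded Stmn4 by 2.29 ± 1.81 in 11 of 12 libraries (adjusted p = 0.00456). Stmn2 against Stmn1 gave 0.70 ± 1.23, higher in 9 (adjusted p = 0.0893), and without library 3 the difference was 0.88 (adjusted p = 0.0149). By level the order was thus Stmn3, then Stmn2 and Stmn1, whose difference did not pass, then Stmn4.

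**Figure D3:**
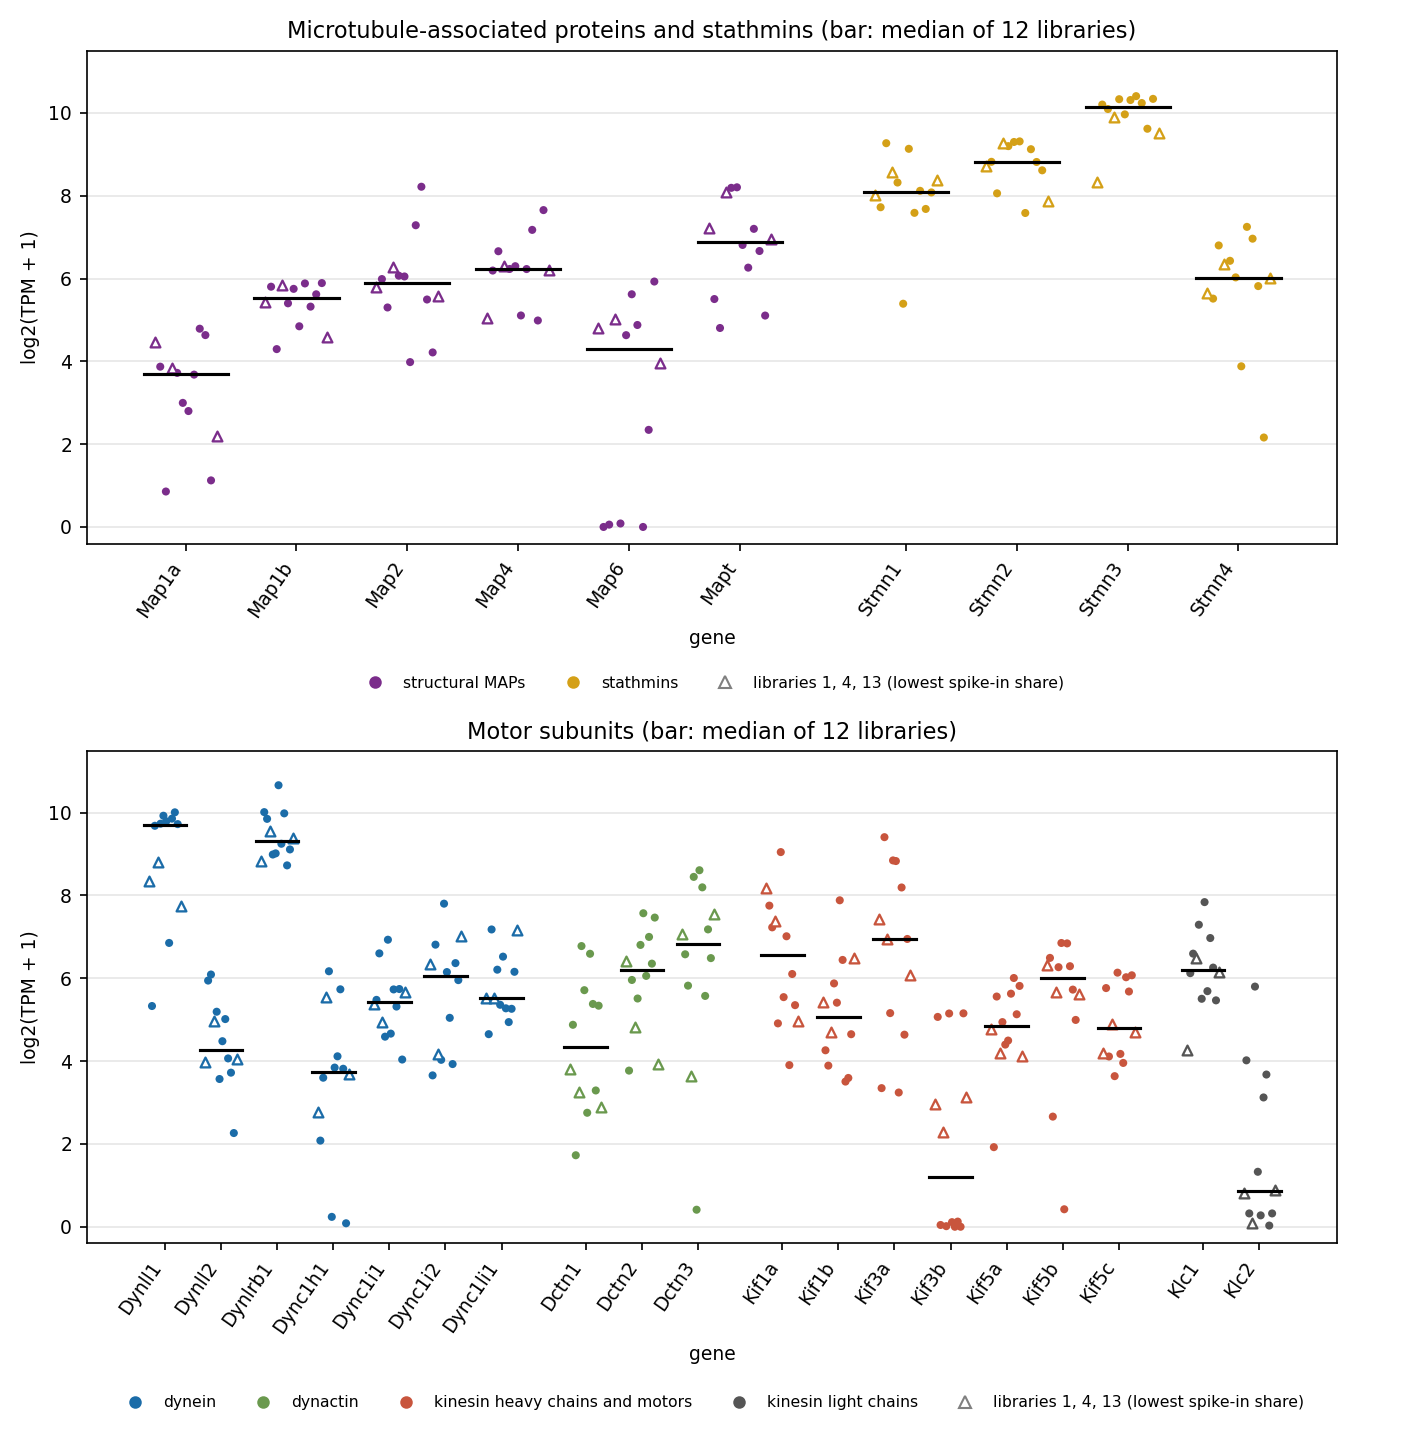
Level of each structural microtubule-associated protein and stathmin (top) and each motor subunit (bottom) as log2(TPM + 1) in the 12 libraries (points; open triangles are libraries 1, 4 and 13; the bar is the median). Stmn3 spans 320 to 1354 TPM, whereas Kif3b splits between 6 libraries under 0.1 TPM and 6 libraries from 3.89 to 34.6.

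Cytoplasmic dynein is built on a heavy chain, Dync1h1, with intermediate, light intermediate and light chains. By mean level Dynlrb1 and Dynll1 led. Dynlrb1, a roadblock-type light chain, ranged from 423 TPM in library 11 to 1619 in library 8 with a median of 636. Dynll1, the LC8 light chain that also binds many other proteins, ranged from 39.2 TPM in library 2 to 1029 in library 11 with a median of 833. Libraries 2 and 9, at 39.2 and 115 TPM, stood below the other 10 for Dynll1. Its paralog Dynll2 ranged from 3.80 to 67.2 TPM with a median of 18.5. Dynll1 exceeded Dynll2 by 4.37 ± 2.19 in 11 of 12 libraries (exact permutation test, adjusted p = 0.00342), library 2 being the exception. Over the longest coding transcripts, to which few Dynll1 counts were assigned, Dynll1 was at 166 ± 98.8 TPM. The difference was then 2.64 (exact permutation test, adjusted p = 0.0103).

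The intermediate chain Dync1i2, the form found in most tissues, ranged from 11.6 to 222 TPM with a median of 65.6, and its neuronal paralog Dync1i1 from 15.4 to 121 with a median of 42.0. They differed by 0.18 ± 1.21 (adjusted p = 0.674), and by -0.16 over the longest coding transcripts. Dync1li1, a light intermediate chain, ranged from 24.1 to 144 TPM with a median of 44.9. The heavy chain Dync1h1 ranged from 0.0600 TPM in library 12 to 71.0 in library 5 with a median of 12.5, and library 6 was at 0.180 TPM. Dync1li1 exceeded Dync1h1 by 2.34 ± 2.09 in 10 of 12 libraries (exact permutation test, adjusted p = 0.00957), but in CPM the difference was 0.88 (adjusted p = 0.494). The heavy-chain coding sequence is 13935 bases long and that of Dync1li1 1572, so equal counts give unequal TPM, and how well either transcript was copied over its length was not tested.

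Dynactin links dynein to its cargo and makes its movement processive. Dctn1, the large p150 subunit, ranged from 2.31 TPM in library 3 to 109 in library 5 with a median of 20.7. Dctn2, or dynamitin, ranged from 12.7 to 189 TPM with a median of 73.2, and Dctn3, a small subunit of the shoulder, from 0.330 in library 6 to 389.6 in library 8 with a median of 114. Library 8 was thus the highest for Dctn2 and Dctn3, yet Dctn1 was at 5.74 TPM there. Dctn2 exceeded Dctn1 by 1.61 ± 1.94 in 9 of 12 libraries (exact permutation test, adjusted p = 0.0422). This was the least stable of the 12 calls: leaving out any of libraries 1, 3, 4, 6, 8, 10, 11, 12 and 13 ended it, with adjusted p from 0.0228 to 0.0820 over the 12 omissions, and in CPM the difference was 0.65 (adjusted p = 0.423). Dctn3 against Dctn2 gave 0.32 ± 2.70 (adjusted p = 0.729), and -0.72 in CPM.

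Among the kinesin motors Kif3a, a subunit of the heterotrimeric kinesin-2, had the highest mean, 204 ± 220 TPM, from 8.46 in library 9 to 678 in library 3 with a median of 122. Kif3b, with which KIF3A pairs, ranged from 0 to 34.6 TPM with a median of 1.99 and reached 50 counts in 6 libraries. The low and high libraries of Kif3b did not form a continuum: 6 were under 0.1 TPM and 6 were between 3.89 and 34.6. Kif3a exceeded Kif3b by 4.58 ± 3.09 in 11 of 12 libraries (exact permutation test, adjusted p = 0.00342), library 2 being the exception with 9.18 against 32.5 TPM. A nonsense-mediated-decay transcript of 770 bases held 43.4% of the Kif3a TPM, and over the longest coding transcripts Kif3a was at 74.3 ± 65.2 TPM and the difference was 3.39 (adjusted p = 0.00994). The kinesin-2 partners that were not in the list were Kifap3, the associated subunit that joins them, at 104 ± 47.6 TPM, and Kif3c, the alternative partner of KIF3A in neurons, at 21.4 ± 16.3 TPM.

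Kif1a, the kinesin-3 that carries synaptic vesicle precursors, ranged from 14.0 TPM in library 10 to 528 in library 6 with a median of 98.0. Its paralog Kif1b ranged from 10.4 to 235 TPM with a median of 33.4. Kif1a against Kif1b gave 1.27 ± 2.09, higher in 9 libraries (adjusted p = 0.103), and without library 8 1.60 (adjusted p = 0.0421). Over the longest coding transcripts, Kif1a was at 39.7 ± 24.2 TPM, Kif1b at 23.9 ± 15.98 and the difference was 0.77, which did not pass (adjusted p = 0.152).

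Kinesin-1, which carries many cargoes along axons, has 3 heavy chains. Kif5b, the form found in most cells, ranged from 0.340 TPM in library 8 to 115 in library 6 with a median of 64.0. The neuronal forms were Kif5a, from 2.79 to 63.3 TPM with a median of 28.0, and Kif5c, from 11.4 to 69.3 with a median of 26.8. Kif5a against Kif5b gave -0.60 ± 2.31 (adjusted p = 0.495), Kif5b against Kif5c 0.40 ± 1.85 (adjusted p = 0.545) and Kif5a against Kif5c -0.19 ± 1.52 (adjusted p = 0.729). Over the longest coding transcripts the signs of all 3 turned, to 0.17, -0.13 and 0.04, and the means came to 31.8 ± 18.1 TPM for Kif5a, 31.5 ± 17.2 for Kif5b and 32.5 ± 23.7 for Kif5c. No order among the 3 genes was resolved in these libraries.

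Klc1 and Klc2 encode light chains that join kinesin-1 to cargo. Klc1 ranged from 18.2 TPM in library 1 to 228 in library 8 with a median of 73.0. Klc2 was the least abundant member, from 0.0200 to 54.7 TPM with a median of 0.810, and it reached 50 counts in 5 libraries. Klc1 exceeded Klc2 by 4.50 ± 1.94 in all 12 libraries (exact permutation test, adjusted p = 0.00342).

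**Figure D4:**
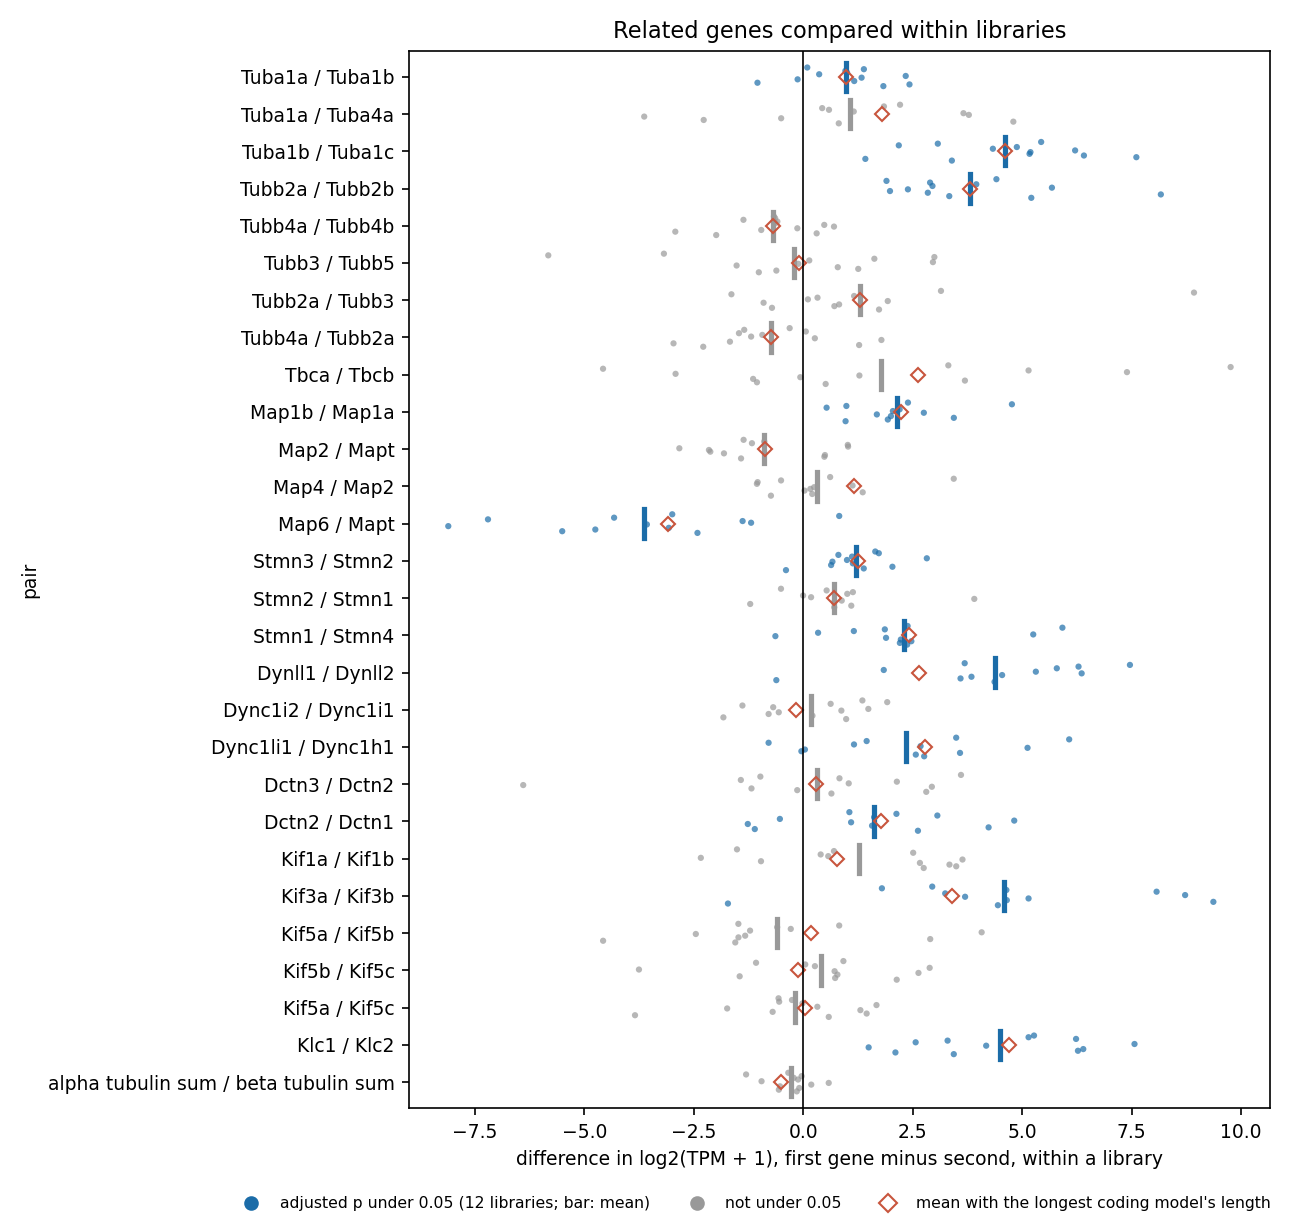
Within-library difference in log2(TPM + 1) for the 28 pairs, first gene minus second (points: 12 libraries; thick bar: mean; blue: adjusted p under 0.05; open diamond: mean when the count is divided by the length of the longest coding transcript). The 12 blue pairs include Tuba1b over Tuba1c at 4.61 and Klc1 over Klc2 at 4.50, and the diamonds of Dynll1 over Dynll2 and Kif3a over Kif3b lie below their bars.

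The annotated transcript that led in a library often differed from one portion to the next. Of the 28 members with a mean of at least 10 TPM and at least 2 annotated transcripts, the transcript with the highest overall level also led in all 12 libraries for 7, which were Tuba1a, Tuba1b, Tubb4b, Stmn1, Stmn2, Dynlrb1 and Klc1. For 13 members more than 2 different transcripts led in some library. Map2, with 24 annotated transcripts, had 10 different leaders. For 5 members the leading transcript was not a coding one, as for Mapt, where a processed transcript of 779 bases held 43.3% of the TPM, and Dync1i2, where a retained-intron transcript of 812 bases held 30.8%. Transcript levels are the authors' estimates from short reads and were not tested.

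Of the 41 members, 30 had 50 or more counts in each of the 12 libraries, against 9.53% of the 16934 genes with a count. The members that missed it were Tuba1c, Tubb2b, Tubb3, Tbca, Tbcb, Map6, Dync1h1, Dctn3, Kif3b, Kif5b and Klc2. Detection follows abundance, so the count is also given within ranges of mean TPM. These ranges are wide, and neither the level within a range nor transcript length was matched. Between 10 and 100 TPM, 15 of 21 members were detected in every library, against 13.7% of 5385 genes, and the median CV was 0.733 against 1.30. Between 100 and 1000 TPM it was 14 of 18 members against 72.1% of 1052 genes, with a median CV of 0.684 against 0.602. These shares describe the list and were not tested.

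Spread between libraries was compared with that of genes of like abundance by edgeR's quasi-likelihood dispersion, tested for each of 13899 genes against the trend over abundance. None of the 41 members varied more than the trend at an adjusted p under 0.05, where 0.0144% of all genes did, and none at an unadjusted p under 0.05, against 0.684%. None varied less at an adjusted p under 0.05, where 2.14% of all genes did, and 4 did at an unadjusted p, against 5.89%, which were Dynll2, Dync1i1, Map2 and Stmn4. The counts with DESeq2 size factors were also 0. The highest ratio to the trend was 2.89 for Tubb3 (unadjusted p = 0.0684) and the lowest 0.208 for Dynll2 (adjusted p = 0.269). The median ratio was 0.856 for the members and 1.20 for all genes.

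**Figure D5:**
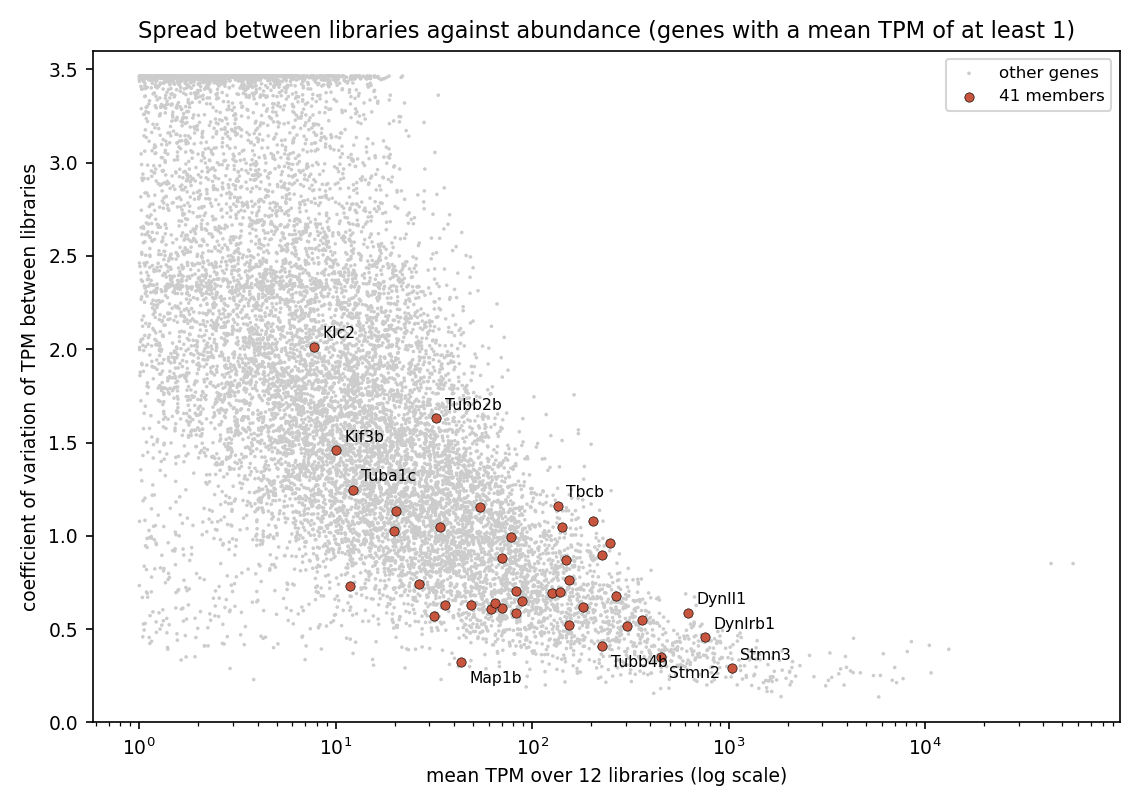
Coefficient of variation of TPM over the 12 libraries against mean TPM (log scale) for genes with a mean of at least 1 TPM (grey) and the 41 members (red). Spread falls with abundance for members and other genes alike, from 2.01 for Klc2 to 0.291 for Stmn3.

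Summed over the 41 members, the level was 6877 ± 1334 TPM, from 4490 in library 1 to 9026 in library 8. Because spike-ins hold part of the deposited TPM, the sum was also rescaled to the TPM of annotated genes alone, where it was 8392 ± 1985. On that scale libraries 1, 13 and 4, which have the lowest spike-in shares, were the 3 lowest, at 4865, 5506 and 6789, and the other 9 ranged from 7786 to 11389. The same 3 libraries had the most genes at 50 counts, 7775, 8645 and 7827 in libraries 1, 13 and 4. The marker sums were not rescaled and are in deposited TPM, spike-ins included. In these, library 13 was the highest for the Bergmann glia, endothelial and red blood cell sums, and library 4 the lowest for the Purkinje sum. The other marker sums peaked elsewhere: granule cell, oligodendrocyte and interneuron sums in library 9, microglia in library 8 and choroid plexus in library 2. Between single genes, the median Spearman correlation over the 12 libraries was 0 between 2 members and 0.0141 between 2 of the 6534 genes at 10 TPM or more. Within classes it was 0.189 for the alpha tubulins (6 pairs, with shared reads), 0.140 for the structural proteins and 0.0979 for the beta tubulins. For the other classes of more than 2 members it was 0.0280 (dynein), 0.00699 (stathmins), -0.00699 (dynactin) and -0.0140 (kinesin motors). These are descriptions over libraries that share 1 lysate, and the part of spike-in share, depth and other cells in them was not tested.

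Another 111 genes of the pathway were looked up from a second list. In each of the 12 libraries 21 of them had 50 or more counts, and 14 had no count in any library. Over the 16934 annotated genes with a count, 9.53% had 50 or more in every library. Of the 92 that entered the edgeR test of spread, none was called above or below the trend, where 0.0144% and 2.14% of all genes tested were. Arl2, the small GTPase that works with the folding cofactors, was at 184 ± 115 TPM, above Tbce at 45.0 and Tbcd at 41.2. Of the other microtubule-binding proteins Map7d2, a kinesin-1 cofactor, was at 206 ± 116 TPM, Clip3 at 92.7 ± 80.7 and the end-binding protein Mapre2 at 83.7 ± 58.1. Dcx, the doublecortin of migrating young neurons, had no count. Of the further dynein and dynactin subunits, Dctn6 was at 153 ± 174 TPM, Dynlt3 at 101 ± 78.0 and Dctn4 at 84.5 ± 42.4. Of the other kinesins, Kif2a, a depolymerase also present in neurons, was at 47.6 ± 36.5 TPM. Of the mitotic motors, Kif11, Kif23, Kif2c and Kif4 had no count, Kif22 was at 2.45 ± 3.26 TPM with at least 50 counts in 5 libraries, and Kif20a was at 1.23 ± 2.33 TPM with at least 50 counts in 3.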

How the data were processed

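The members and all lists were chosen with earlier results of these data known. Per the labels, Smart-seq libraries with spike-ins were made from RNA over 200 bases; per the deposited text files the build was mm10 with GENCODE M4, while no source used here names the aligner or quantifier. The authors deposited, per gene and transcript, expected counts and TPM, the transcript's share of its gene in percent, and for genes a score, the posterior SD of the count. The deposited TPM total includes the spike-ins. Symbols, positions and sequences came from GENCODE M21 (GRCm38), to which 42462 of 43346 gene identifiers matched.

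Expected counts were rounded for edgeR 4.0.16 (R 4.3.3; TMM factors, a mean count of 5 or more, intercept-only quasi-likelihood fit, Benjamini-Hochberg adjustment over all genes tested), with DESeq2 1.42.0 size factors as an alternative. Pairs used log2(TPM + 1), which understates differences of low genes, and the exact sign-flip test (Python 3.11.15). Scripts were tested on simulated data, where the test of spread missed many seeded genes, so a count of 0 called genes is weak evidence. Every member with a mean TPM of at least 10 or in a tested pair was named, and of the other genes the 3 most abundant per class and all alpha and beta tubulins; genes with no count, such as Dcx, and Kif22 and Kif20a were named after their values were seen. Alternatives were a pseudocount of 0.1 or 10, CPM in place of TPM, TPM set to 0 under 50 counts, other count minimums, leaving out each library and, chosen after seeing the data, the longest coding transcript's length, leaving out libraries 1, 4 and 13, and adding Tuba8 and Tubb6. The coding ends of some tubulins are not reported here.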

Additional observations from a re-analysis of the deposited data

How the results depend on the processing

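Of 28 pairs, 12 were called with a pseudocount of 0.1 or 10, in CPM and with TPM set to 0 under 50 counts, 15 over the longest coding transcripts, 10 without libraries 1, 4 and 13, and 11 to 13 when each library was left out. When each library was left out, 11 pairs were called in all 12 omissions, 11 in none and 6 in some. Signs that turned belonged to pairs that were not called. Tubb3 against Tubb5 was 0.01 with a pseudocount of 10, 0.10 without libraries 1, 4 and 13, and from -0.50 to 0.30 when each library was left out (0.30 without library 12 and 0.06 without 13). In CPM, Dync1i2 against Dync1i1 was -0.22, Dctn3 against Dctn2 -0.72, Kif5a against Kif5b 0.34 and Kif5b against Kif5c -0.43. Over the longest coding transcripts Dync1i2 against Dync1i1 was -0.16, Kif5a against Kif5b 0.17, Kif5b against Kif5c -0.13 and Kif5a against Kif5c 0.04. Kif5a against Kif5c ranged from -0.36 to 0.14 when each library was left out, the latter without library 2. CPM drops length by construction; the cause of the other turns was not tested. In CPM, Map4 against Map2 was called at 1.14 (adjusted p = 0.00684), Stmn2 against Stmn1 at 1.75 (adjusted p = 0.00547) and the alpha against the beta sum at -0.48 (adjusted p = 0.0167), by the exact permutation test. Members with the count minimum met in every library numbered 36 at 1 count, 34 at 10 counts and 30 at 1 TPM, and 30 to 31 when each library was left out. The matching shares of all genes were not computed. Members called in the test of spread numbered 0 under DESeq2 size factors, with no filter, with a mean count of at least 50, without libraries 1, 4 and 13 and without each library. Genes called above and below the trend numbered 2 and 295 of 13899 with DESeq2 size factors. They were 2 and 307 of 16952 with no filter, and 2 and 142 of 11394 at a mean count of at least 50. Without libraries 1, 4 and 13 they were 0 and 244 of 12667. When each library was left out they numbered 1 to 2 and 271 to 307. The libraries are portions of 1 lysate of 1 mouse, so no value speaks to other cells or mice. At 1 cell equivalent, a low count in a portion shows only that the RNA was not captured there at this depth.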

Other observations

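The enzymes that modify tubulin tails were led by Ttll5, a glutamylase, at 135 ± 108 TPM (SD, n = 12 libraries), from 17.9 in library 1 to 374 in library 9. Agtpbp1, the deglutamylase whose loss underlies the pcd mouse, was at 95.4 ± 87.6 TPM, from 0.0600 in library 2 to 241 in library 12, and reached 50 counts in 10 libraries. Over their longest coding transcripts the means were 44.3 ± 36.4 TPM for Ttll5 and 23.9 ± 28.3 for Agtpbp1. Ttll7, a glutamylase that acts on beta-tubulin, was at 68.1 ± 20.4 TPM and never under 41.8, and over its longest coding transcript at 40.5 ± 19.3, a higher mean than that of Agtpbp1 on that scale, a difference that was not tested. Of 21 genes for modification and severing, 2 had at least 50 counts in every library, and Ttll6 and Vash1, a tyrosine carboxypeptidase, had none in any. Over the 16934 annotated genes with a count, 9.53% had at least 50 in every library.

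Of the motor adaptors, the mitochondrial GTPases Rhot1 and Rhot2 were at 30.6 ± 23.9 and 28.4 ± 45.4 TPM, and Mapk8ip3 at 30.1 ± 49.5. Of the kinases that phosphorylate tau and related proteins, Gsk3b was at 70.9 ± 27.4 TPM, from 29.9 to 116, Cdk5 at 67.5 ± 69.2, from 0 to 221, and its activator Cdk5r1 at 19.0 ± 17.5. None of these genes was called in edgeR's test of spread, where 0.0144% of all genes tested were called above the trend and 2.14% below.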
